A study of Mus musculus with 2 samples.

Results

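Aerocytes, the large capillary endothelial cells that line the thin side of the alveolar wall, made up 2164 of the 25094 barcodes in 2 libraries of mouse lung cells. Of these, 1321 came from the 11721 barcodes of Cebpa fl/fl lungs and 843 from the 13373 barcodes of Cebpa ΔSftpc lungs. The measurement was droplet-based 3′ scRNA-Seq, in which each captured RNA molecule carries a unique molecular identifier (UMI) and is counted once. Cebpa fl/fl mice carried floxed alleles of Cebpa, the gene of a transcription factor of alveolar type 2 (AT2) cells, and served as controls. Cebpa ΔSftpc mice carried the same floxed alleles and Sftpc-CreERT2, a tamoxifen-inducible recombinase driven by the promoter of the surfactant gene Sftpc, which is active in AT2 cells and not in endothelium. The first of 5 daily tamoxifen doses of 75 mg/kg was given 26 weeks earlier, and a second, weekly round was part of the schedule for late time points. Both genotypes were described by their time after tamoxifen, but the dosing of the control mice was not set out on its own, and were they undosed, tamoxifen and genotype could not be told apart. Mice were of mixed background, and their stated age was 3 months unless given otherwise. The study counted 3 mice per genotype, but no barcode is tied to a mouse, so each genotype was 1 sample of pooled animals and no difference between genotypes had a replicate check or a p-value. All intervals are exact 95% intervals that cover counting error only. Because the control mice lacked the recombinase, its presence and the deletion of Cebpa cannot be told apart.

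The alveolar capillary net is built from 2 kinds of endothelial cell. Aerocytes spread over the gas-exchange surface and are known for the endothelin receptor Ednrb and the carbonic anhydrase Car4, which speeds the exchange of carbon dioxide. General capillary cells carry Kit, the apelin receptor Aplnr and genes of lipid uptake, tune vessel tone, and can give rise to both kinds after injury. Epithelial cells of the alveolus signal to aerocytes by VEGFA, which acts through the receptor Kdr.

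Cells were taken as aerocytes if they had at least 200 genes, at most 20% mitochondrial UMIs and at least 3000 UMIs, at least 10 UMIs of the endothelial genes Pecam1, Cdh5, Cldn5 and Calcrl, and no UMI of the leukocyte gene Ptprc. They also had to have at least 5 UMIs of Ednrb, Fibin, Chst1 and Car4 together, more than their UMIs of the general capillary genes Kit, Gpihbp1, Glp1r and Plvap. Cells with 3 or more UMIs of venous or lymphatic genes, or 2 or more of arterial genes, were left out. The aerocytes were thus chosen by their UMI counts of these genes, and the levels of the 4 aerocyte genes are given as a description. The median sum of the 4 genes was 53 UMIs per cell from Cebpa fl/fl lungs (5th to 95th percentile, 19 to 102) and 48 in the Cebpa ΔSftpc library (11 to 94). Exactly 5 UMIs were found in 4 and 5 aerocytes, and 3 and 7 cells with 4 UMIs just missed the limit. The comparison of the sums cut closer, with 244 and 205 cells left out for a general capillary sum as high or higher, and 38 and 33 aerocytes whose own sum was less than 2 times the other. At the depth limit, 55 and 32 aerocytes had 3000 to 3500 UMIs, and 41 and 56 cells with 2500 to 3000 UMIs met all other limits. The median sum of the general capillary genes was 1 UMI in both libraries, and 44.7% and 45.2% of aerocytes had 0. Both sums reached 5 UMIs in 8.66% (7.85 to 9.52) of Cebpa fl/fl capillary cells and in 11.5% (10.3 to 12.8) of Cebpa ΔSftpc capillary cells. All 4 aerocyte genes were found in 84.3% and 78.6% of the chosen cells. The aerocytes held 10112760 UMIs from Cebpa fl/fl lungs (median 7046 UMIs and 2864 genes per cell) and 7352261 from Cebpa ΔSftpc lungs (median 8250 UMIs and 3205 genes). The libraries shared 45 barcodes, 5 of them on aerocytes, and no barcode was an aerocyte in both.

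The label of the cells was checked against markers that the limits did not use. Levels are in CPM, the UMIs of a gene summed over the cells of a population and scaled to a total of 1000000 UMIs. Emp2, a membrane protein of thin alveolar cells, stood at 5503 in Cebpa fl/fl and 4961 in Cebpa ΔSftpc aerocytes, against 191 and 243 in general capillary cells. Tbx2, a T-box transcription factor, stood at 696 and 695 CPM in aerocytes and at 24.5 and 31.3 CPM in general capillary cells. Apln, the ligand of the apelin receptor, stood at 269.6 and 287 CPM in aerocytes and at 8.64 and 24.6 CPM in general capillary cells. Kdr, the main VEGF receptor, stood at 2991 and 2831 CPM in aerocytes and at 438 and 431 CPM in general capillary cells. In both libraries each of these genes was far higher in aerocytes than in any other endothelial population gated here. Of the 11 aerocyte markers that the limits did not use, these 4 included, 10 had enough UMIs to be compared with general capillary cells and 9 were at least 2-fold higher in both libraries. Across all genes compared, 463 of 8434 (5.49%) were at least 2-fold higher in aerocytes in both libraries and 521 (6.18%) at least 2-fold lower. The exception among the markers was Hpgd, the enzyme that breaks down prostaglandins, at 2049 and 1328 CPM in aerocytes and 4071 and 2363 CPM in general capillary cells. Il1rl1 could not be judged, with 0 and 4 UMIs in all aerocytes. Of the 9 general capillary markers outside the limits, 8 were compared and 5 were at least 2-fold lower in aerocytes (Aplnr, Lpl, Cd93, Sema3c and Cxcl12), while Ly6a was 2-fold higher. Tmem100 and Cd36 differed by less than 1.5-fold. Since both populations were cut by their own counts, these ratios describe the cells and carry no test.

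**Figure D1:**
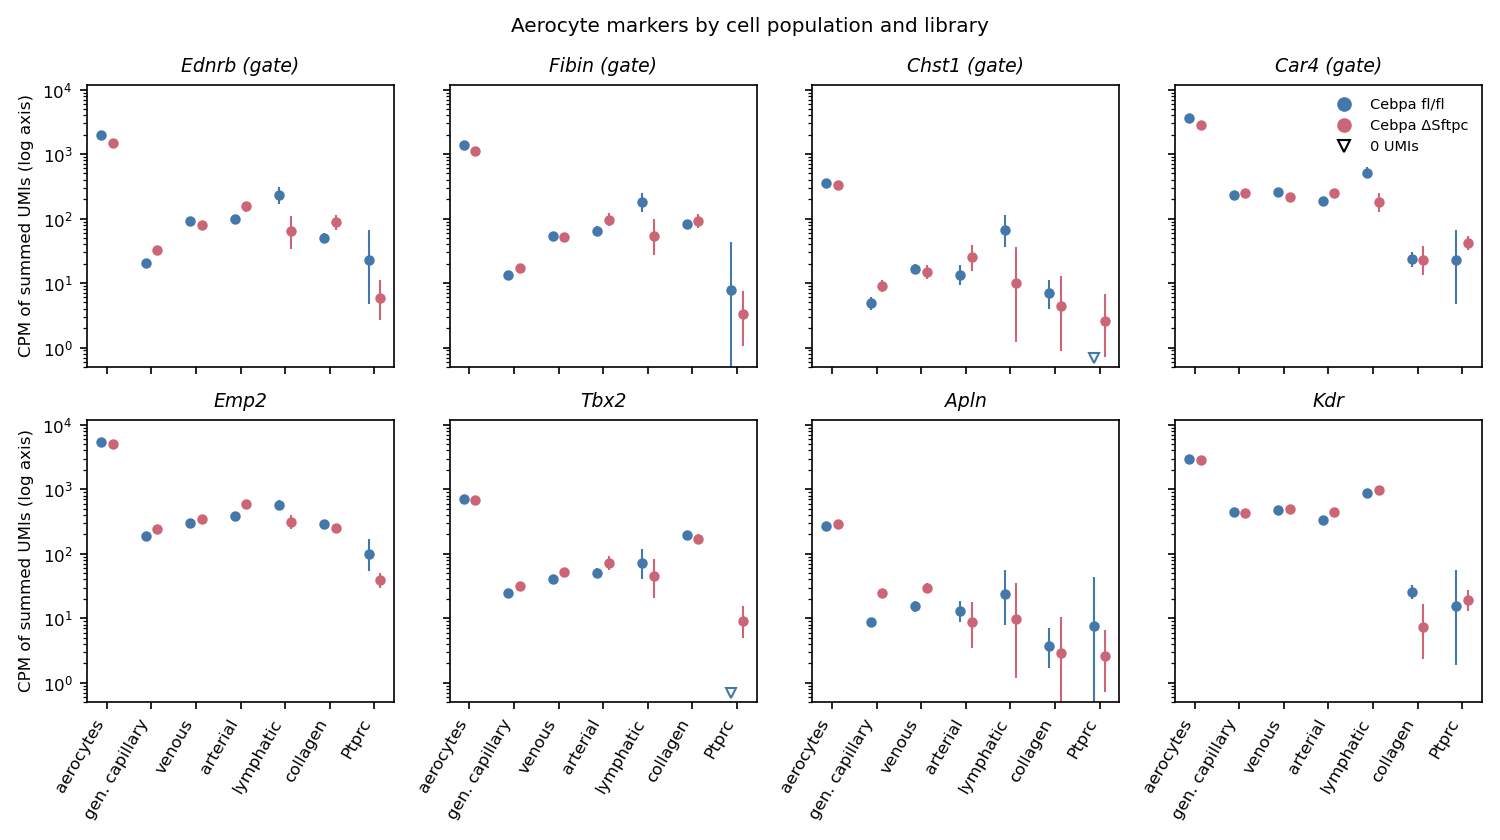
Level in CPM of summed UMIs (log axis) of the 4 genes that chose the aerocytes and of 4 other markers, in 7 cell populations of each library, with exact 95% Poisson intervals (cut at the lower axis limit; triangles mark 0 UMIs). In every panel the aerocytes stand highest in both libraries, for example Tbx2 at 696 and 695 CPM, and the 4 genes on the upper row were used to choose the cells.

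Ednrb, the endothelin B receptor, lies on chromosome 14 (GRCm38, 103814625 to 103844402, minus strand). It stood at 1997 CPM in Cebpa fl/fl and 1481 CPM in Cebpa ΔSftpc aerocytes, with arterial cells next among the larger endothelial populations at 99.9 and 154 CPM, venous cells at 92.2 and 78.5 CPM and general capillary cells at 20.7 and 32.9 CPM. After every cell was thinned to 3000 UMIs, 96.6% and 92.5% of aerocytes had an Ednrb UMI (98.9% and 97.4% before thinning), against 4.80% and 6.74% of general capillary cells and 9.29% and 13.2% of collagen-rich cells, a population of 323 and 76 cells with collagen RNA and without endothelial UMIs. The median depth before thinning was 4928 and 5708 UMIs in general capillary cells and 6929 and 8946.5 UMIs in collagen-rich cells. Fibin, a secreted protein of little-known role (chromosome 2, 110360917 to 110363183, minus strand), stood at 1379 and 1111 CPM in aerocytes and at 13.4 and 16.8 CPM in general capillary cells. Chst1, a sulfotransferase that acts on keratan sulfate (chromosome 2, 92599707 to 92615250, plus strand), stood at 358 and 329 CPM in aerocytes and at 4.86 and 9.04 CPM in general capillary cells. Car4, a carbonic anhydrase anchored to the cell surface (chromosome 11, 84957786 to 84966044, plus strand), stood at 3676 and 2801 CPM in aerocytes and at 231 and 245 CPM in general capillary cells. Thinned aerocytes varied widely in their markers: the 10th to 90th percentile ran from 2 to 11 UMIs of Ednrb in Cebpa fl/fl cells (median 6) and from 1 to 9 in Cebpa ΔSftpc cells (median 4), and from 5 to 18 (median 11) and 3 to 14 (median 8) for Car4. Car4 marked the 2 capillary kinds less sharply than the other 3 genes: 41.1% and 42.8% of thinned general capillary cells still had a Car4 UMI. All 4 genes were lower in Cebpa ΔSftpc than in Cebpa fl/fl aerocytes, by log2 ratios of -0.43 for Ednrb, -0.39 for Car4, -0.31 for Fibin and -0.12 for Chst1. In general capillary cells the same genes were higher in the Cebpa ΔSftpc library, by 0.67 for Ednrb, 0.90 for Chst1, 0.33 for Fibin and 0.09 for Car4. These 4 genes set which cells were counted on each side, so nothing is read from these ratios.

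The 4 genes were high together in the same cells, and the 250 bases before the RefSeq start of each (GRCm38.p6) are shown to place them side by side. Capitals mark the only match to the motifs searched.
Ednrb, chr14:103843702-103843951, minus strand: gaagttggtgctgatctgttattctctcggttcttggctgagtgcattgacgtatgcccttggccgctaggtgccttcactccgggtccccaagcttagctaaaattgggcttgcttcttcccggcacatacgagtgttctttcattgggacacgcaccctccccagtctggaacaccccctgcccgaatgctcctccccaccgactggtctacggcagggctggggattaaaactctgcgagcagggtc
Fibin, chr2:110362994-110363243, minus strand: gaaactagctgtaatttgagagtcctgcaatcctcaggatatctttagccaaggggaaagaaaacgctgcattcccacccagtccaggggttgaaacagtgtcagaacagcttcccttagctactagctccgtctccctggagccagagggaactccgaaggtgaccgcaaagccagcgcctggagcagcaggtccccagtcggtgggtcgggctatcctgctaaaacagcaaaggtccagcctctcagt
Chst1, chr2:92600867-92601116, plus strand: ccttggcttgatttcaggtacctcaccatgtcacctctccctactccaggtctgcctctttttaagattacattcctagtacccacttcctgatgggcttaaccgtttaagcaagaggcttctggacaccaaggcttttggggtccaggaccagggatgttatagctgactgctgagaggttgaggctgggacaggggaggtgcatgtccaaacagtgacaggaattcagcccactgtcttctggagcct
Car4, chr11:84957504-84957753, plus strand: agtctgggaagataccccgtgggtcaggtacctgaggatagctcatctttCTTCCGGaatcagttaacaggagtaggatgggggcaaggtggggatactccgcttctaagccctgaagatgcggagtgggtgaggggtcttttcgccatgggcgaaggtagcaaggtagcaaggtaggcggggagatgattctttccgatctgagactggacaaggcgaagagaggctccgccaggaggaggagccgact
The windows of Ednrb, Fibin and Chst1 lie wholly or partly inside the longer GENCODE models of these genes, and that of Car4 lies before the gene. GC content was 56.8% for Ednrb, 54.8% for Fibin, 51.6% for Chst1 and 56.4% for Car4, around the median of 52.4% over 32851 such windows. A T-box motif, AGGTGTGA on either strand, was in none of the 4 windows and in 1.12% of all windows. An ETS motif, CCGGAAG on either strand, was in the Car4 window 200 bases before the start and in 6.91% of all windows. Of 451 windows of genes at least 2-fold higher in aerocytes, 3 (0.665%) held the T-box motif and 32 (7.10%) the ETS motif. Both shares lay near those of all windows.

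Aerocytes differed from general capillary cells by many genes outside the marker lists. The 15 genes highest by the smaller of their 2 ratios were Ncam1, Masp1, Slc5a12, Dpysl5, Rbfox3, Rspo3, Xpnpep2, Gm40639, Rprml, Htr2b, Cdkn2a, Ccdc184, Il1a, Clec4g and Gm30648. Ncam1, a cell adhesion molecule better known from neurons and natural killer cells, stood at 57.5 and 118 CPM in aerocytes and at 0.90 and 1.97 CPM in general capillary cells, log2 ratios of 5.99 (5.28 to 6.81) and 5.90 (5.30 to 6.59). Masp1, a protease of the lectin pathway of complement, stood at 42.9 and 31.6 CPM in aerocytes and rested on 5 and 7 UMIs in general capillary cells. Rspo3, a secreted enhancer of WNT signalling, stood at 99.3 and 72.8 CPM in aerocytes and at 1.13 and 1.70 CPM in general capillary cells. Htr2b, a serotonin receptor, stood at 39.5 and 34.96 CPM in aerocytes and at 1.02 and 0.72 CPM in general capillary cells. Clec4g, a C-type lectin of endothelium, stood at 28.6 and 35.5 CPM in aerocytes against 0.40 and 1.07 CPM, log2 ratios of 6.18 and 5.05. The ratios of single genes could differ between the libraries, as for Masp1 with log2 ratios of 7.25 (6.01 to 8.88) and 5.65 (4.59 to 6.98). Among abundant genes, Igfbp7, a secreted protein that binds insulin-like growth factors, stood at 6058 and 5355 CPM in aerocytes and at 318 and 475 CPM in general capillary cells, log2 ratios of 4.25 (4.21 to 4.29) and 3.49 (3.45 to 3.54).

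Among these 15 genes, 1 was a cell cycle inhibitor. Cdkn2a, which codes for p16INK4a and ARF, stood at 56.4 and 62.8 CPM in aerocytes and at 0.73 and 1.79 CPM in general capillary cells, log2 ratios of 6.26 (5.48 to 7.18) and 5.13 (4.49 to 5.86). Its RNA was found in few cells, 8.78% (7.31 to 10.4) and 9.37% (7.49 to 11.5) of aerocytes thinned to 3000 UMIs, with up to 7 UMIs in 1 cell, against 0.224% and 0.691% of general capillary cells and 0 of 323 and 0 of 76 thinned collagen-rich cells, where a count of 3 cells, taken as the limit for 0, would be 0.929% and 3.95%. Cdkn2b, the neighbouring gene for p15INK4b (chromosome 4, 89306299 to 89311039, beside Cdkn2a at 89274471 to 89294653), stood at 245 and 151 CPM in aerocytes and at 10.5 and 8.06 CPM in general capillary cells. Of 12 p53 target and arrest genes, 9 were compared and 4 were at least 2-fold higher in aerocytes (5.49% of all genes): Cdkn2a, Cdkn2b, Cdkn1a (567 and 653 against 171 and 230.1 CPM) and Phlda3 (416 and 349 against 67.3 and 68.2 CPM), and none was lower. Of the proliferation genes, Mki67 had 2 and 10 UMIs and Top2a 4 and 15 UMIs in all aerocytes. All 14 genes of that list were detected in both libraries, with Pcna the most abundant. They summed to 135 and 157 CPM in aerocytes, against 123 and 231 CPM in all cells.

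The 15 genes lowest in aerocytes were Fabp4, Edn1, Hmcn1, Tox3, Syt15, Ackr4, Kcnh1, Esm1, Gpr182, Car14, Aplnr, Itga6, Npr3, Dnah8 and Sema3g. In the lists below, counts of lower and higher genes stand against 6.18% and 5.49% of all genes compared. Edn1, the gene of endothelin 1, stood at 16.7 and 17.0 CPM in aerocytes and at 343 and 337 CPM in general capillary cells (log2 ratios of -4.36 and -4.31). Its receptor gene Ednrb was used to choose the aerocytes, so the pair is not compared. Aplnr stood at 8.504 and 6.39 CPM in aerocytes and at 129 and 135 CPM in general capillary cells, opposite to its ligand Apln. Of 8 VEGF genes compared, 3 were lower and 2 higher, with Vegfc among the lower, a gene used to leave out venous cells. Vegfa stood at 42.3 and 35.9 CPM in aerocytes and 469.8 and 394 CPM in general capillary cells, while Kdr and the co-receptor Nrp1 (2692 and 2199 against 694 and 618 CPM) were higher in aerocytes. Flt1, another VEGF receptor, stood at 779 and 758 CPM in aerocytes and 936 and 964 CPM in general capillary cells (log2 ratios of -0.27 and -0.35), and Flt4 at 52.9 and 60.3 against 59.6 and 53.8 CPM. Lipid uptake genes that were lower in aerocytes were Fabp4, Fabp5 and Lpl, beside Gpihbp1, whose counts were used to choose the cells, while Cd36 and Scarb1 differed by less than 2-fold. The MHC class II genes were lower for 5 of 5, with Cd74 at 164 and 188 CPM in aerocytes and 885 and 1703 CPM in general capillary cells. Of 10 Notch genes compared 5 were lower, among them Hey1 and Dll1, and of 4 angiopoietin and Tie genes 3 were lower: Angpt2, Tek and Ptprb. Of 11 junction genes 2 were lower and 0 higher.

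**Figure D2:**
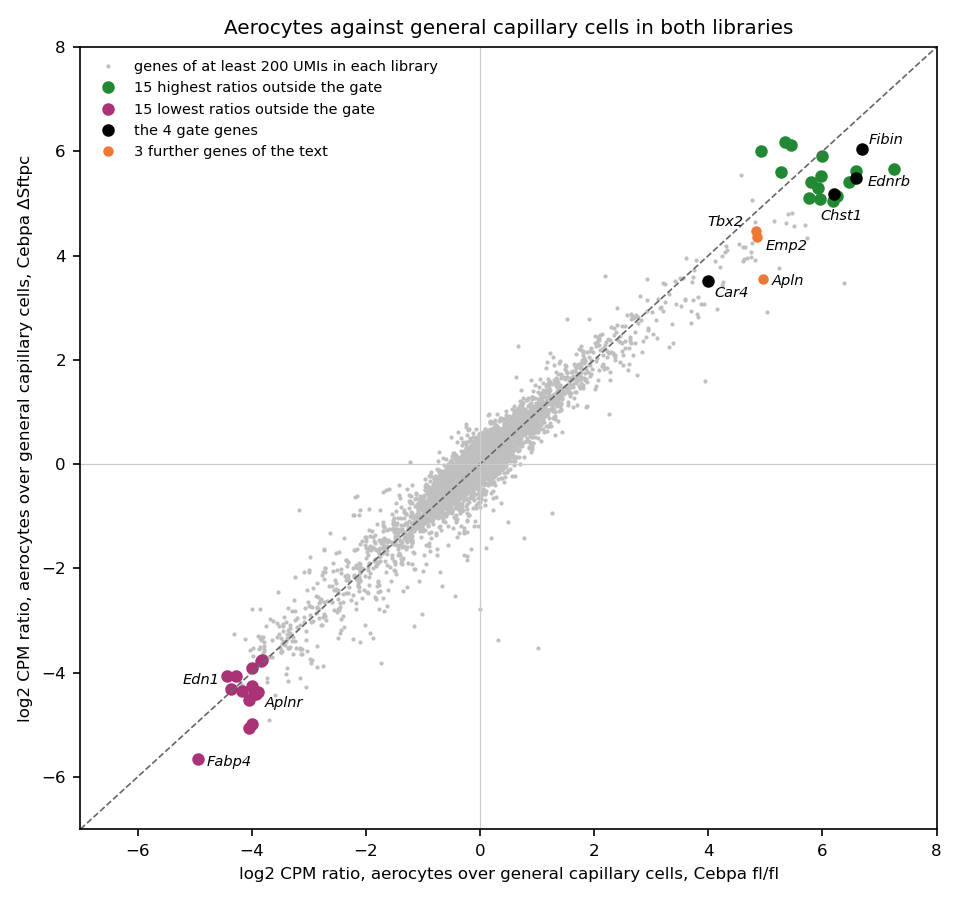
Log2 ratio of CPM in aerocytes over general capillary cells for each of the 8434 genes compared, Cebpa fl/fl on the x axis and Cebpa ΔSftpc on the y axis, with the diagonal dashed. Most genes lie along the diagonal, and Apln (4.96 and 3.54) lies below it.

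The share of aerocytes between the genotypes depended on what they were counted against. They were 16.1% (15.3 to 16.9) of the 8209 cells with at least 3000 UMIs from Cebpa fl/fl lungs and 13.6% (12.7 to 14.4) of 6212 in Cebpa ΔSftpc lungs, and the log2 ratio was -0.25 (-0.37 to -0.12). Among cells of the endothelial gate they were 22.0% (20.9 to 23.0) of 6014 and 24.9% (23.4 to 26.3) of 3392, a log2 ratio of 0.18 (0.05 to 0.30). Among aerocytes and general capillary cells they were 29.7% (28.4 to 31.1) and 32.7% (30.9 to 34.5), a log2 ratio of 0.14 (0.01 to 0.26). The first ratio was -0.13 when cells were thinned to 3000 UMIs before they were chosen, and the last 2 moved with the depth limit. With at least 1000 UMIs they were 0.40 and 0.53, and with at least 5000 UMIs 0.07 and -0.04. Between 1000 and 3000 UMIs the gate held 114 control and 469 Cebpa ΔSftpc cells, where the number of all cells of that depth was 2373 and 5521. The aerocyte markers summed to a median of 13 and 8 UMIs in these shallow cells, close to the limit of 5 in the second library. The labels speak of sorting and the study of whole-lung suspensions, so the shares refer to the libraries and not to the lung.

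Cebpa itself, on chromosome 7 (35119293 to 35121928, plus strand), was scarce in aerocytes: 148 UMIs (14.6 CPM) in the Cebpa fl/fl and 69 UMIs (9.38 CPM) in the Cebpa ΔSftpc library, which gave a log2 ratio of -0.64 (-1.07 to -0.22). After thinning, 3.18% and 2.61% of aerocytes had a Cebpa UMI (9.01% and 7.24% before), against 3.65% and 4.43% of general capillary cells and 2.48% and 3.95% of collagen-rich cells. The share lay within counting error of that in collagen-rich cells, of which there were only 323 and 76. Whether the Cebpa UMIs of aerocytes were background was not tested. In epithelial cells of the libraries, taken as cells with at least 3 UMIs of Epcam and Cdh1, Cebpa stood at 122 CPM (116 to 129) in 583 cells and at 71.2 CPM (59.5 to 84.5) in 83 cells, lower in the library labelled Cebpa ΔSftpc. These cells were not limited to AT2 cells, so a different mix of epithelial cells and a lower level per AT2 cell cannot be told apart.

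Within aerocytes the genotypes differed little for most genes. The median log2 ratio of Cebpa ΔSftpc over Cebpa fl/fl was 0.02 over the 8114 genes with at least 200 UMIs. At 1.5-fold or more, 170 genes (2.1%) were higher and 169 (2.08%) lower in the Cebpa ΔSftpc library. The lower genes were 66 when every cell was thinned to 3000 UMIs, with 119 higher. Many of these genes were more abundant in the library at large than in aerocytes. Of the 169 lower genes, 137 stood below the Cebpa fl/fl level of all cells and 15 were markers of other cell types, and of the 170 higher genes 82 stood below the level of all cells in the Cebpa ΔSftpc library. A narrower set was therefore counted after the data had been seen: the 4532 genes at or above the level of all cells in aerocytes of both libraries. Of these, 62 (1.37%) were 1.5-fold or more higher and 25 (0.552%) lower.

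The genes named among those at or above the level of all cells were higher in Cebpa ΔSftpc cells of both capillary kinds. Ankrd37, a gene induced by hypoxia, stood at 15.03 CPM in Cebpa fl/fl and 98.6 CPM in Cebpa ΔSftpc aerocytes, a log2 ratio of 2.71 (2.46 to 2.98), beside 2.88 in general capillary cells. After thinning, 3.86% and 18.0% of aerocytes had an Ankrd37 UMI (8.78% and 31.6% before), against 0.619% and 1.32% of collagen-rich cells. Nos2, the inducible nitric oxide synthase, stood at 7.81 and 47.7 CPM, a log2 ratio of 2.61 (2.26 to 2.98), beside 1.88. A Nos2 UMI was found in 1.89% and 11.03% of thinned aerocytes (4.84% and 25.3% before) and in 0 of 323 and 0 of 76 collagen-rich cells, with the same limits. Tnfrsf10b, a death receptor for TRAIL, stood at 15.4 and 54.0 CPM, a log2 ratio of 1.81, beside 2.11. The other genes of this set were Bcl3, Mest, Bcl6b, Ncam1, Nfkbie, Timp3, Pprc1 and Sema3b, with log2 ratios of 0.90 to 1.23 in aerocytes and of 0.36 to 1.32 in general capillary cells. For Ncam1 the general capillary ratio of 1.12 (0.13 to 2.15) rested on 16 and 22 UMIs, and the aerocyte ratio was 0.83 after thinning. Among them Bcl3 and Nfkbie code for proteins of the IκB family that act on NF-κB, and Timp3 for an inhibitor of matrix proteases (822 and 1534 CPM, log2 ratio 0.90).

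Among the genes higher in Cebpa ΔSftpc aerocytes that stood below the level of all cells in at least 1 library, Slc12a2, F2r and Col18a1 were more than 2-fold above that level in the Cebpa ΔSftpc library. Slc12a2, the sodium-potassium-chloride cotransporter NKCC1, stood at 79.1 CPM (800 UMIs) and 233 CPM (1711 UMIs), a log2 ratio of 1.56 (1.43 to 1.68), beside 0.29 (27.7 and 33.8 CPM) in general capillary cells. A Slc12a2 UMI was found in 16.4% (14.4 to 18.5) and 40.3% (37.0 to 43.7) of thinned aerocytes (31.0% and 61.2% before), against 5.598% and 7.66% of general capillary cells and 6.50% and 10.5% of collagen-rich cells. F2r, the thrombin receptor PAR1, stood at 50.4 and 155 CPM, a log2 ratio of 1.62 (1.47 to 1.77), beside 0.58, with a UMI in 11.1% and 30.0% of thinned aerocytes (23.6% and 51.1% before), against 6.91% and 11.3% of general capillary cells and 29.7% and 34.2% of collagen-rich cells, which carry the gene. Col18a1, the basement membrane collagen from which endostatin is cut, stood at 14.0 and 75.8 CPM, a log2 ratio of 2.43 (2.16 to 2.71), beside 0.82, with a UMI in 3.33% and 13.6% of thinned aerocytes (5.98% and 24.4% before), against 1.31% and 2.36% of general capillary cells and 16.4% and 17.1% of collagen-rich cells, which carry the gene. In Cebpa fl/fl aerocytes these 3 genes stood below the level of all cells (83.0, 63.8 and 24.2 CPM), and in Cebpa ΔSftpc aerocytes above it (81.7, 64.3 and 32.4 CPM). The difference in ratio between the capillary kinds was not tested. Ntrk2, a neurotrophin receptor, and Spry4, an inhibitor of growth factor signalling, were also higher (log2 ratios of 2.92 and 2.48), but at 37.5 and 52.9 CPM in Cebpa ΔSftpc aerocytes against 158 and 97.3 CPM in general capillary cells. Ntrk2 stood below the level of all cells in both libraries, and the Spry4 ratio was 3.29 once RNA at the library's mean profile was subtracted. The remaining genes of the list were Plac8, Wdfy1, Ifi27l2a and AY036118. The last overlaps ribosomal RNA, as Gm42418 does, and together the 2 took 1.68% and 3.64% of aerocyte UMIs and 2.05% and 3.99% of the UMIs of all cells.

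**Figure D3:**
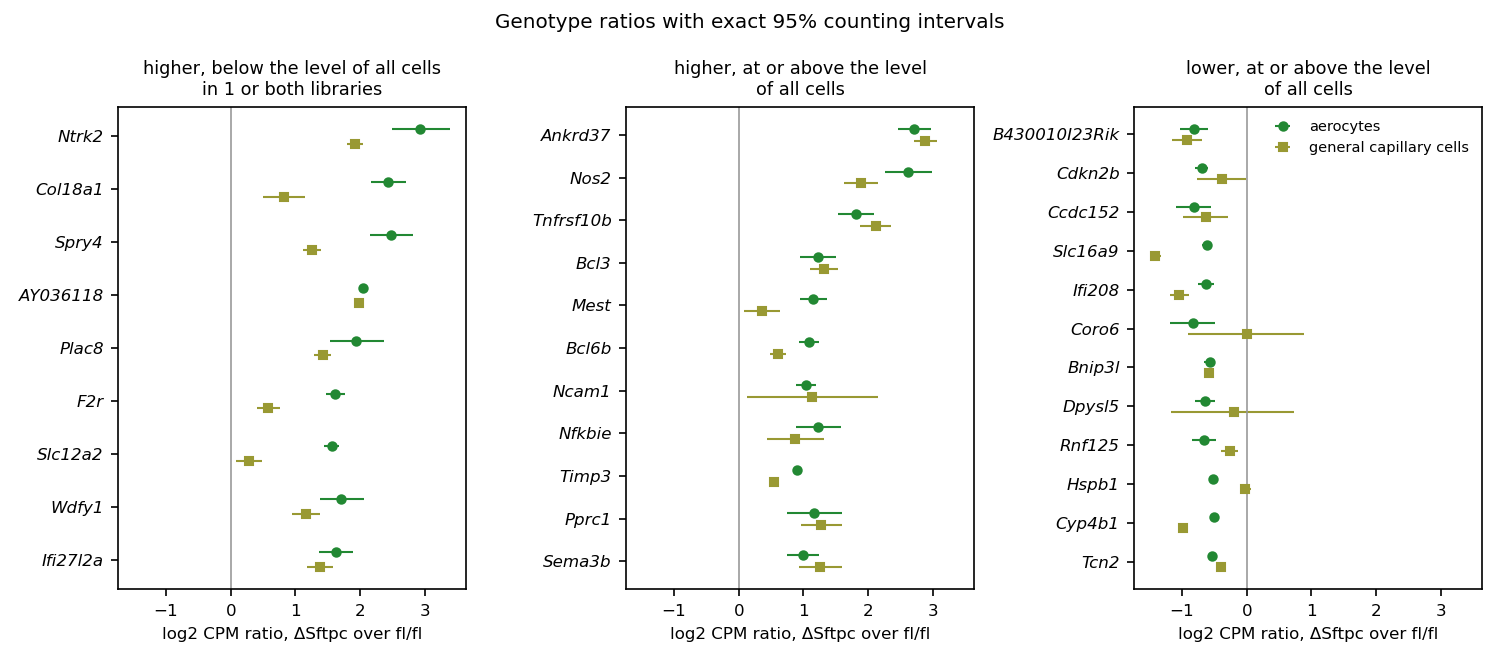
Log2 ratio of CPM in Cebpa ΔSftpc over Cebpa fl/fl in aerocytes (circles) and in general capillary cells (squares), with exact 95% counting intervals, for the genes named by rule. In aerocytes Slc12a2 stands at 1.56 and Col18a1 at 2.43, to the right of their squares at 0.29 and 0.82, while Tnfrsf10b at 1.81 stands to the left of its square at 2.11.

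Genes lower in Cebpa ΔSftpc aerocytes were of 2 kinds, those that aerocytes carry and those more abundant elsewhere. Of the genes at or above the level of all cells, the 12 named by the same rule were B430010I23Rik, Cdkn2b, Ccdc152, Slc16a9, Ifi208, Coro6, Bnip3l, Dpysl5, Rnf125, Hspb1, Cyp4b1 and Tcn2, with log2 ratios between -0.83 and -0.50. Of these, Bnip3l, Hspb1, Cyp4b1 and Tcn2 were under 1.5-fold. With RNA at the library's mean profile subtracted, Slc16a9 (-0.48), Ifi208 (-0.55) and Dpysl5 (-0.55) were under it too, as was Hpgd (-0.57). Cdkn2b stood at 245 and 151 CPM, a log2 ratio of -0.70 (-0.80 to -0.59), beside -0.38 in general capillary cells, with a UMI in 47.2% and 31.8% of thinned aerocytes (71.4% and 59.7% before), against 2.79% and 1.32% of collagen-rich cells. Hspb1, a small heat shock protein, stood at 1222 and 855 CPM, a log2 ratio of -0.51, beside -0.02. Cyp4b1, a cytochrome P450 of lung endothelium, stood at 2435 and 1721 CPM, a log2 ratio of -0.50, beside -0.99. Hpgd was lower in aerocytes (log2 ratio -0.63) and in general capillary cells (-0.78), with 2049 and 1328 CPM in aerocytes. The 12 lowest genes without regard to level were Ccdc153, Dynlrb2, Tmem212, S100g, Chchd10, Hhip, Wfdc2, Hc, Gm47283, Cbr2, Nupr1 and Atp1b1, and each stood below the level of all cells in both libraries. Gm47283, on chromosome Y, stood at 152 and 32.6 CPM in aerocytes and 186 and 77.7 CPM in all cells. Its log2 ratio was -2.22 in aerocytes and -2.20 in general capillary cells. The study used both sexes, the sex of the mice in each library is not known here, and its part was not tested. Ccdc153, a gene of ciliated cells, stood at 32.1 and 1.496 CPM in aerocytes and at 129 and 42.9 CPM in all cells. Hc, a complement gene of AT2 cells, stood at 38.7 and 6.66 CPM in aerocytes and at 192 and 34.5 CPM in all cells.

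**Figure D4:**
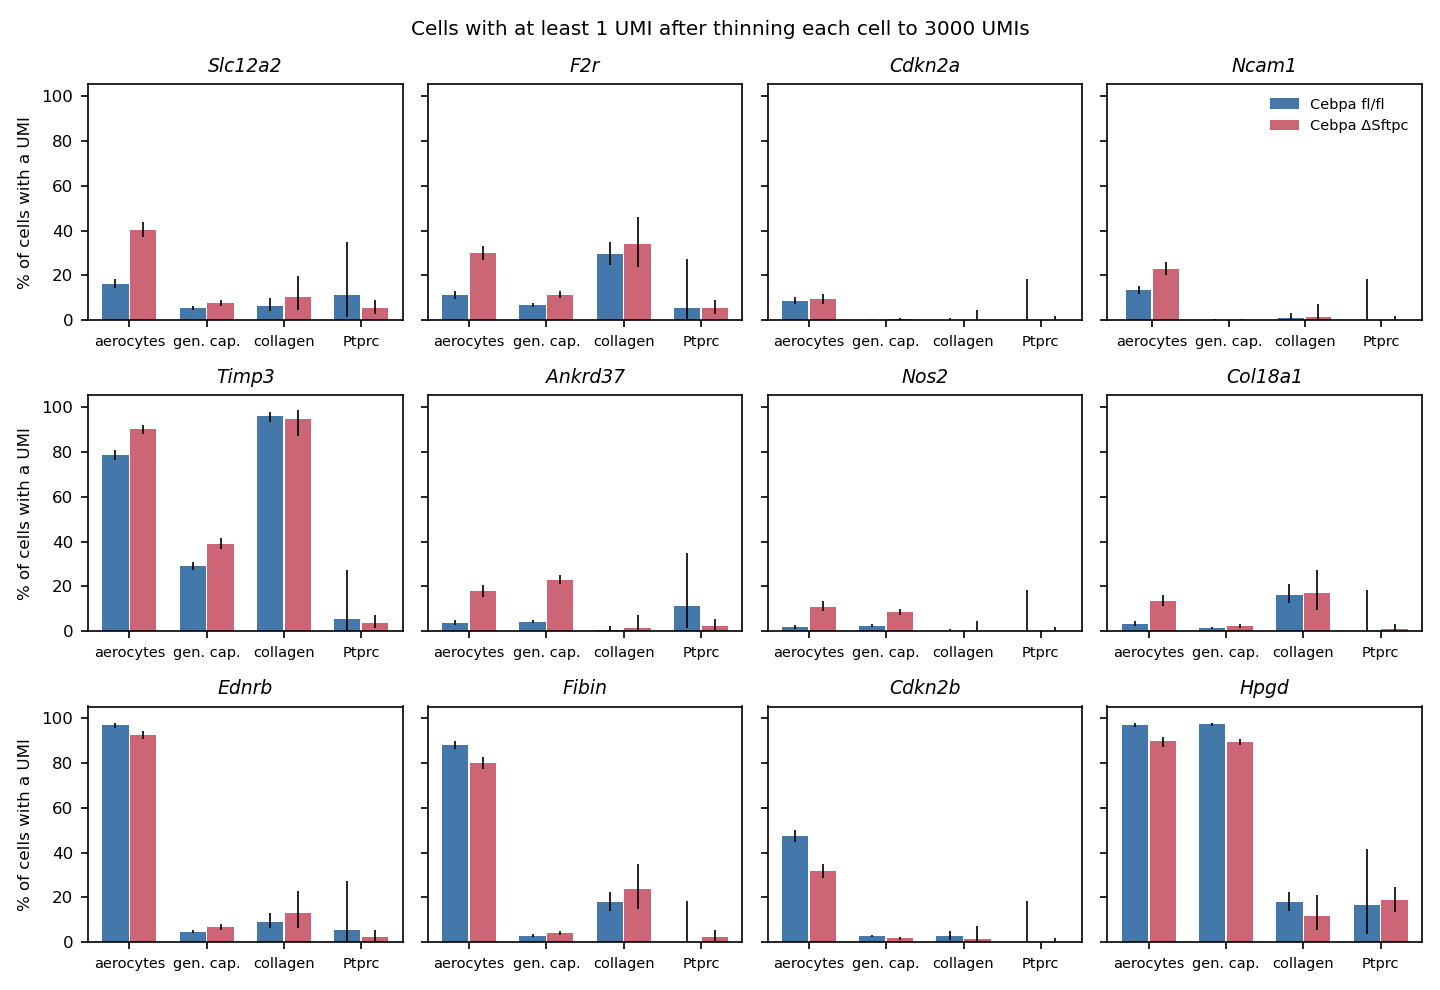
Percentage of cells with at least 1 UMI of each gene after every cell was thinned to 3000 UMIs, in aerocytes, general capillary cells, collagen-rich cells and Ptprc-positive cells of both libraries, with exact 95% binomial intervals (bars start at 0). Slc12a2 was found in 16.4% and 40.3% of aerocytes and Cdkn2b in 47.2% and 31.8%.

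Markers of other cells were present in aerocytes, for every list but the AT1 markers below their level in all cells. The 9 AT2 markers summed to 7190 CPM in Cebpa fl/fl and 1540 CPM in Cebpa ΔSftpc aerocytes, beside 34491 and 5338 CPM in all cells, all 9 were detected in both, and Sftpc was the most abundant (5536 and 1014 CPM). A Sftpc UMI was in 86.8% of thinned Cebpa fl/fl aerocytes (98.4% before thinning), 84.5% of collagen-rich cells and 88.9% of Ptprc-positive cells, and in 23.1%, 18.4% and 23.2% of the same populations of the Cebpa ΔSftpc library. These shares were much alike in cells that should lack the gene, so Sftpc in aerocytes is read as background. The 9 neutrophil markers summed to 21.1 and 169 CPM in aerocytes and to 118 and 5291 CPM in all cells, with S100a9 the most abundant in the Cebpa ΔSftpc library (612 UMIs) and Camp and Ngp at 0. AT2 and neutrophil markers thus differed between the libraries in the same direction in aerocytes and in all cells. The 10 macrophage markers did not, with 375 and 333 CPM in aerocytes and 2459 and 4492 CPM in all cells, led by Lyz2, with Adgre1 at 0 in the Cebpa fl/fl library. Of these, 2 had enough UMIs to be counted: Lyz2 was lower in Cebpa ΔSftpc aerocytes (372 and 230 CPM, log2 ratio -0.69) and Chil3 higher (5 and 567 UMIs). The 7 erythroid markers, led by Hbb-bs, summed to 76.0 and 137 CPM in aerocytes and 2461 and 4881 CPM in all cells. The 5 platelet markers, led by Pf4, summed to 32.0 and 63.0 CPM in aerocytes and 336 and 315 CPM in all cells. The 5 B cell markers, led by Igkc, summed to 5.34 and 41.5 CPM in aerocytes and 81.2 and 1092 CPM in all cells. Platelet markers were thus higher in Cebpa ΔSftpc aerocytes and not in all cells. The 9 fibroblast markers summed to 288 and 162 CPM in aerocytes and 2979 and 1693 CPM in all cells, with Dcn at 88.6 and 23.7 CPM in aerocytes. The 8 smooth muscle and pericyte markers summed to 43.2 and 39.3 CPM, against 519 and 434 CPM in all cells. The 7 airway markers summed to 489 and 578 CPM, against 2865 and 5220 CPM in all cells. The 7 T and NK cell markers were scarce in aerocytes, at 0.99 and 10.5 CPM against 21.9 and 306 CPM in all cells. The 3 mesothelial markers summed to 0.89 and 1.22 CPM, against 11.4 and 7.39 CPM, with Wt1 at 0 in aerocytes of both libraries. In aerocytes 23.3% and 22.8% of cells had 2 or more fibroblast or mural UMIs. The 7 AT1 markers stood apart, at 1208 and 851 CPM in aerocytes above 777 and 359 CPM in all cells, almost all of it Hopx (1117 and 809 CPM), which stood at 364 and 233 CPM in all cells, while Ager stood at 58.0 and 21.4 CPM. The part of these RNAs in the genotype ratios of genes below the level of all cells was not tested.

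**Figure D5:**
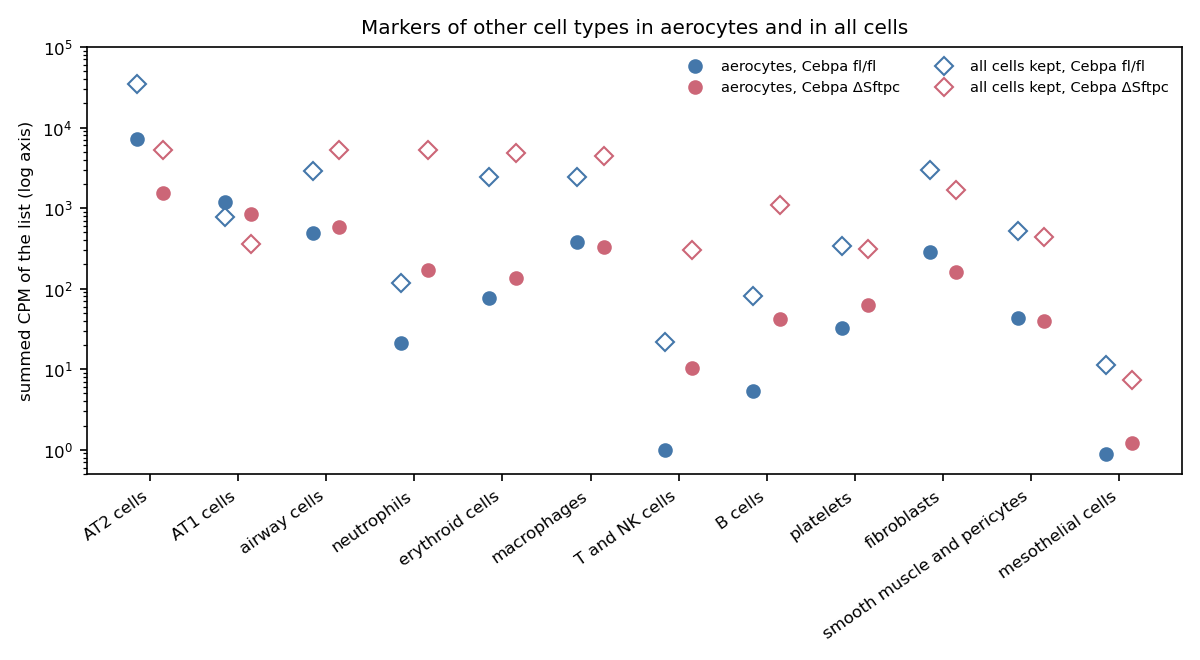
Summed CPM (log axis) of the markers of 12 other cell types in aerocytes (circles) and in all cells kept (diamonds) of each library. Aerocytes lie below all cells for every list but the AT1 markers, and in both the AT2 markers are lower in the Cebpa ΔSftpc library (7190 and 1540 CPM in aerocytes) and the neutrophil markers higher (21.1 and 169 CPM).

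The genotype counts of the gene lists stand against 2.1% of all genes higher, 2.08% lower and a median log2 ratio of 0.02. Endothelial identity genes outside the limits had a median log2 ratio of 0.08 over 19 genes, with Sox17 the only one past 1.5-fold higher (25.4 and 40.3 CPM, log2 ratio 0.66, under 1.5-fold at 0.48 with a stricter gate (10 marker UMIs and 2 times the other sum) and 0.57 without cells that had fibroblast, mural or epithelial UMIs) and Ptprb, the phosphatase that restrains the receptor Tie2, the only one lower. Ptprb stood at 433 and 244 CPM (log2 ratio -0.83) against 3598 and 2533 CPM in general capillary cells, and a Ptprb UMI was in 61.3% and 38.1% of thinned aerocytes (86.2% and 66.8% before) beside 52.6% and 31.6% of collagen-rich cells, which should lack it. The share in cells that should lack Ptprb thus differed between the libraries much as it did in aerocytes, and its part in the ratio was not tested. With RNA at the library's mean profile subtracted, at a share of 0.208 in Cebpa fl/fl and 0.289 in Cebpa ΔSftpc, the Ptprb ratio was -6.99. Subtracted ratios depend on these shares. Those as large as this one, here and for Junb and Sparc below, are not read as fold changes. The 3 angiopoietin and Tie genes counted had a median of -0.58, with Ptprb lower past 1.5-fold, the receptor gene Tek at -0.58 (77.6 and 51.8 CPM) and Tie1 at 0.08. Of the aerocyte markers outside the limits, 0 of 10 counted were 1.5-fold higher and 1 lower (Hpgd), with a median of -0.10. Tbx2, Apln, Kdr and Emp2 had log2 ratios between -0.15 and 0.09. In the VEGF, Notch, BMP and TGF-beta, junction and caveola lists, 0 of 43 counted genes passed 1.5-fold in either direction, a share near that of all genes. The junction list holds Cdh5, Cldn5 and Pecam1, whose counts were used to choose endothelial cells.

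Of the 7 basement membrane genes counted, 6 had ratios above 0 and 2 were 1.5-fold higher, with a median log2 ratio of 0.55, beside 2.1% and 0.02 over all genes. Col4a1 and Col4a2, the chains of the type IV collagen of vessel walls, stood at 610.3 and 907 CPM (log2 ratio 0.57) and at 376 and 594 CPM (0.66), and in general capillary cells their ratios were 1.06 and 1.13. Sparc, a matrix protein that binds collagen, stood at 140.2 and 225 CPM (0.68, or 3.01 with RNA at the library's mean profile subtracted). Hypoxia response genes had a median of 0.49 over 7 counted, with Ankrd37, Bnip3 (46.4 and 72.5 CPM, 0.64) and Ldha (85.8 and 134 CPM, 0.64, but 0.58 with at least 5000 UMIs per cell) past 1.5-fold and Vegfa at -0.24. Bnip3 and Ldha were outside the set at or above the level of all cells. The whole list summed to 308 and 479 CPM in aerocytes, against 639 and 699 CPM in all cells, and the part of RNA from other cells was not tested. Interferon response genes had ratios above 0 for 21 of 22 counted, with a median of 0.29, and 4 passed 1.5-fold: Ifit2 (1.16), Ifi44 (0.97), Gbp4 (0.88) and Ifitm3 (0.69). Ifitm3 stood at 409 and 659 CPM in aerocytes, below 1663 and 1594 CPM in all cells and 2695 and 2630 CPM in general capillary cells, whose own log2 ratio was -0.04. The Ifitm3 ratio in aerocytes was 1.80 with the same subtraction. The chemokine genes Cxcl9 (1 and 39 UMIs), Cxcl10 (6 and 84 UMIs) and Ccl5 (10 and 68 UMIs) were scarce, and 23 of the Cxcl10 UMIs were in 1 thinned cell. MHC class I genes had a median of 0.21 over 9, with Nlrc5, their transactivator, past 1.5-fold (0.63, but 0.54 without cells that had fibroblast, mural or epithelial UMIs). Immediate-early genes had a median of 0.10 over 14, with Junb (0.80) and Nr4a1 (0.67) past 1.5-fold, though the Junb ratio was -3.15 once RNA at the library's mean profile was subtracted. The Nr4a1 ratio was under 1.5-fold at 0.57 with at least 5000 UMIs per cell and 0.58 with the stricter gate. Guidance genes past 1.5-fold were Unc5b, a netrin receptor (0.70), and Sema3c (0.69). Hmox1, the heme-degrading enzyme, was 1.5-fold higher among 10 antioxidant genes (8.90 and 17.6 CPM, 0.98). Car2, a cytosolic carbonic anhydrase, was lower past 1.5-fold (95.6 and 61.3 CPM, -0.64). Of 18 endothelial transcription factors counted, Sox17 alone passed, with the same loss. Of 10 p53 target and arrest genes, 0 were higher and 1, Cdkn2b, was lower, with a median of 0.02. Of 8 vasoactive genes, Hpgd alone passed, on the lower side. Of 5 lipid uptake genes counted, 1 was lower past 1.5-fold, Fabp5 (-1.56), and 0 were higher. Fabp5 and Hmox1 were outside the set at or above the level of all cells. Neither had a value after thinning, with free RNA subtracted, or without cells that had fibroblast, mural or epithelial UMIs. Gbp4, Ifitm3, Junb, Sema3c and Car2 were outside that set as well. Of 6 coagulation and fibrinolysis genes counted, 1 was higher past 1.5-fold and 0 were lower. In the apelin and adrenomedullin, adhesion and chemokine, heat shock, MHC class II and proliferation lists, 0 of 23 counted genes passed, among them Calcrl, which was used to choose endothelial cells. The members of these lists were picked with earlier results of the data known, so their counts are a description.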

How the data were processed

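The authors prepared 10x Genomics 3′ libraries from lung cell suspensions, aligned them to mm10 with Cell Ranger and deposited raw UMI counts per gene and cell barcode. The matrix headers name version 5.0.0 and the submitters' processing notes 6.1.1. The libraries held 69200420 (Cebpa fl/fl) and 64697396 (Cebpa ΔSftpc) UMIs, of which 11487 and 13238 barcodes were kept. Cells were gated by marker UMIs and their counts summed. CPM carry exact Poisson intervals, ratios exact conditional intervals with counts under 3 raised to 3, and shares Clopper-Pearson intervals, all at 95%. Sampling to 3000 UMIs per cell left out 0 gated cells. Collagen-rich cells (323 and 76) had at least 10 collagen and Dcn UMIs, Ptprc-positive cells (18 and 207) at least 3 Ptprc UMIs, and neither had UMIs of the endothelial gate genes. No doublet caller was run, and 1.82% and 0.712% of aerocytes had 2 or more Epcam or Cdh1 UMIs and 23.3% and 22.8% 2 or more fibroblast or mural UMIs.

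Genes with at least 200 UMIs were counted as past 1.5-fold between genotypes and 2-fold between capillary cells. Named were the 15 genes in each direction with the largest smaller ratio of both libraries, and the 12 whose interval bound nearest 0 was farthest from it, markers of other cells and mitochondrial, ribosomal and hemoglobin genes counted apart. Of the genes so named, 1 is not reported here. The members and lists were chosen with earlier results of these data known. With 1 library per genotype no test was made. The scripts were tested on simulated data. Gene coordinates were GENCODE M21 (GRCm38), matched for 110 of 110 genes, and promoters RefSeq GRCm38.p6. Python 3.11.15, numpy 2.4.6, pandas 2.3.3, scipy 1.17.1 and matplotlib 3.10.9 were used.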

Additional observations from a re-analysis of the deposited data

Results flagged for a closer look

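For 7 genes the genotype ratio had opposite directions in the capillary kinds, each past 1.5-fold, and the difference was not tested. Rgcc, a cell cycle regulator known from endothelium, had a log2 ratio of -0.83 in aerocytes and 1.25 in general capillary cells, and stood at 14.5 and 8.16 CPM in aerocytes. Igfbp5, which binds insulin-like growth factors, had ratios of -1.80 in aerocytes and 0.97 in general capillary cells. Gpx3, a secreted glutathione peroxidase, had ratios of -0.67 and 0.64, with 220 and 138 CPM in aerocytes. Npnt, a matrix ligand of integrins, had ratios of -0.92 and 0.66, and Hhip, an inhibitor of hedgehog signalling, -2.94 and 0.74. Ager, an AT1 gene, had ratios of -1.44 and 0.74, and Myh11, the smooth muscle myosin, -0.91 and 1.30. All 7 stood below the level of all cells in aerocytes of both libraries, as with Igfbp5 at 19.9 CPM against 164 CPM in the Cebpa fl/fl library, and the part of RNA from other cells was not tested.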

How the results depend on the processing

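The log2 ratio of the aerocyte share kept its direction among all cells under 6 of 6 alternatives, but was -0.13 in place of -0.25 when cells were thinned before the gate, and among endothelial cells it was 0.40 at a limit of 1000 UMIs. Among capillary cells it was 0.53 at 1000 UMIs and reversed to -0.037 at 5000 UMIs. The 170 genes higher and 169 lower between genotypes became 155 and 100 without cells that had fibroblast, mural or epithelial UMIs, and 119 and 66 after thinning. They were 451 and 686 at a minimum of 50 UMIs, 41 and 36 at 1000 UMIs, 45 and 57 at 2-fold, and 62 and 25 among genes at or above the level of all cells, a limit added once the data had been seen. The 463 genes higher and 521 lower than in general capillary cells became 586 and 804 at a minimum of 50 UMIs and 904 and 925 at 1.5-fold. Of 283 values for 69 single-gene ratios under alternatives that changed the cells or the counts, 226 kept the direction and moved less than the counting interval, 56 moved further and 1 reversed, Junb at -3.15 with free RNA subtracted. Not every gene had a value under every alternative, and the counts leave out the missing ones. With free RNA subtracted, Ntrk2, Plac8, Ifi27l2a, Hmox1, Sox17 and Fabp5 were among the genes without a value. The causes were not tested. Leaving out a replicate could not be done. No paired analysis was possible because each genotype had 1 library. Counting intervals cover neither animals nor libraries, and genes with few UMIs had wide ones.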

Other observations

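The capillary kinds also differed in genes of coagulation, matrix and interferon response that were counted but not described above. Over all genes compared, 6.18% were at least 2-fold lower in aerocytes and 5.49% at least 2-fold higher. Of 6 coagulation genes compared, 3 were at least 2-fold lower in aerocytes, with Vwf, the von Willebrand factor, at log2 ratios of -3.21 and -2.95. Of 9 basement membrane genes, 3 were lower and 1 higher: Lamc1, a laminin chain, at 1.28 and 1.22. Of 24 interferon response genes 6 were lower and 0 higher, with Iigp1, an interferon-induced GTPase, at -3.76 and -3.68.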
